A study of Mus musculus with 4 samples.

Results

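Cyclins and cyclin-dependent kinases were followed in cultured mouse bone marrow mesenchymal stem/progenitor cells (MSPC) without and with Asxl1, a chromatin regulator that works with the BAP1 deubiquitinase in the Polycomb system. The 10 genes, taken by symbol from a deposited RNA sequencing table of 23997 symbols, were the cyclin genes Ccna2, Ccnb1, Ccnb2, Ccnd1, Ccnd2, Ccnd3, Ccne1 and Ccne2 and the kinase genes Cdk1 and Cdk2, and each matched 1 row. There were 2 Asxl1-/- and 2 wild-type (WT) libraries, all from C57BL/6 cells between passage 5 and passage 10, kept in MesenCult medium that held 20% supplement and split at 80 to 90% confluency. The labels give neither the way in which Asxl1 was deleted nor the age of the mice, and they do not say whether libraries of a genotype came from separate animals. Replicate numbers follow accession order and pair no samples, and a p-value here covers only the spread among these samples, which may be technical.

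A cyclin-dependent kinase is inactive until a cyclin binds it, and most cyclins are made and destroyed in every cell cycle. D cyclins, induced by growth factors, bind Cdk4 and Cdk6 and start the phosphorylation of the retinoblastoma protein, which frees E2F factors. E cyclins with Cdk2 then drive entry into DNA replication, cyclin A2 acts with Cdk2 in S phase and with Cdk1 later, and the B cyclins with Cdk1 drive mitosis. Messenger RNAs of the A and B cyclins and of Cdk1 rise late in the cycle and are low in cells that do not divide, whereas D cyclin RNA follows outside signals.

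Levels are in FPKM, fragments scaled to transcript length and to all mapped fragments, so genes can be compared per length. How many reads each library held is unknown. The sum of FPKM was 553030 and 497274 in Asxl1-/- and 563694 and 703662 in WT. Short rows weigh on the WT sums. In WT replicates 1 and 2 Snora15 stood at 34866 and 34039.6 FPKM and Snora69 at 17789.9 and 34593 FPKM. Snora47 stood at 6126 and 11859 FPKM there, and all of these rows were listed at 0 in both Asxl1-/- libraries. The size factors of the median ratio scaling used below were 0.978 and 0.968 in Asxl1-/- and 1.07 and 1 in WT. Asxl1 itself stood at 0.273 and 0.312 FPKM in the Asxl1-/- libraries, against 14.6 and 11.2 FPKM in the WT libraries. The 12 listed stromal markers summed to 5146 and 5454 FPKM in Asxl1-/- and to 4807 and 6023 FPKM in WT, most of it from collagens, Cxcl12 and Itgb1, with Col1a1 at 1395 FPKM in both Asxl1-/- libraries and at 1298 and 2043 FPKM in WT. Not all of them were high. Eng (endoglin) stood below 1 FPKM in all but WT replicate 1, Lum (lumican) was at 0.279 and 7.57 FPKM in Asxl1-/- and at 6.54 and 4.48 FPKM in WT, and Pdgfra was at 58.8 and 63.0 FPKM in Asxl1-/-, against 80.9 and only 4.78 FPKM in WT replicates 1 and 2. The part of this difference of WT replicate 2 in the results below was not tested. Macrophage markers, of which 13 of 14 listed symbols had a row, summed to 80.9 and 376 FPKM in Asxl1-/- replicates 1 and 2 and to 7.36 and 560.4 FPKM in WT replicates 1 and 2. In Asxl1-/- replicate 1 the marker Fcer1g alone gave 72.2 FPKM, and Tyrobp, Fcer1g and C1qb were listed at 0 in WT replicate 1. In no tested macrophage marker did both Asxl1-/- libraries lie on 1 side of both WT libraries, and the part of these cells in the results below was not tested.

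RefSeq promoters (build GRCm38.p6) were at hand for 6 of the 10 genes: Ccnb1, Ccnb2, Ccnd3, Ccne1, Cdk1 and Cdk2. Those of Ccnb1, Ccnb2 and Cdk1, the mitotic set whose levels were lower in both Asxl1-/- libraries, are shown as the 250 bases before the transcript start, 5′ to 3′ on the gene's strand, which is the minus strand for all 3. Capitals mark matches on either strand to CCAAT (the CCAAT box, ATTGG on the other strand), to TTTGAA (the cell cycle genes homology region, CHR) and to TTCCCGC or TTGGCGC (E2F sites).
Ccnb1, chr13:100786487-100786736: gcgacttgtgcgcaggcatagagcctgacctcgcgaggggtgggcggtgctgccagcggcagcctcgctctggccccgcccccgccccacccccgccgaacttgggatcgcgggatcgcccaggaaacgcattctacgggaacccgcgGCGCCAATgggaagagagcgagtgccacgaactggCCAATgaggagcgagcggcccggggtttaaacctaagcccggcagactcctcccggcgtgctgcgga
Ccnb2, chr9:70421555-70421804: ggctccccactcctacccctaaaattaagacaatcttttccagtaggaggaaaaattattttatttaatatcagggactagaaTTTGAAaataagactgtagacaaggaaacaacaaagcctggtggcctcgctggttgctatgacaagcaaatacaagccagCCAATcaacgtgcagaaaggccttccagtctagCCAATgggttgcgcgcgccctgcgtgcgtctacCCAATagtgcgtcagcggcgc
Cdk1, chr10:69352913-69353162: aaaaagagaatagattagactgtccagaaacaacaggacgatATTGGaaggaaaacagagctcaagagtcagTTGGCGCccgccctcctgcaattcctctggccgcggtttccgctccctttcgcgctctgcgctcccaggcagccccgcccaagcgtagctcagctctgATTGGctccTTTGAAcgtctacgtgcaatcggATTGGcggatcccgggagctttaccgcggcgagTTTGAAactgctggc

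Repeated CCAAT boxes are what these 3 promoters have in common. In Ccnb1 the boxes began at -99 and -67, counted from the start, 32 bases apart, and an E2F match on the other strand overlapped the farther of them. Ccnb2 had 3 boxes, at -87, -54 and -21, each 33 bases from the next, with TTTGAA at -167 and, just past the start, at 5. Cdk1 had boxes on the other strand at -208, -80 and -48, the nearer 2 being 32 bases apart, with TTTGAA at -71 and -15 and an E2F match at -178. At least 2 CCAAT boxes before the start were found in 3 of the 6 genes with a promoter and in 10.1% of all 32851 promoters in the table. TTTGAA before the start was found in 16.0% of them and an E2F match in 5.62%. Among the other promoters, Cdk2 had 1 CCAAT box and 2 E2F matches, and Ccnd3 had 1 CCAAT box at 1 of its 2 starts. Ccne1, whose level was also lower in both Asxl1-/- libraries, had no match in its window. A match is a run of letters and not evidence of binding.

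**Figure D1:**
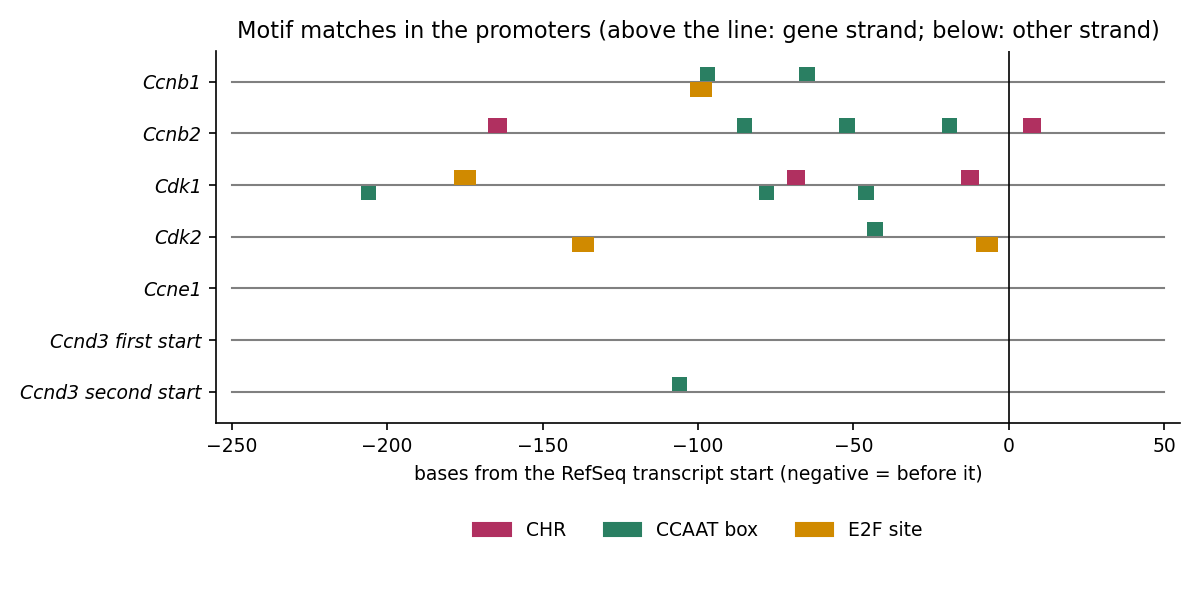
Matches to the 3 motifs in the 7 promoters of 6 genes, by distance in bases from the RefSeq transcript start, with the gene strand above each line and the other strand below it. Ccnb1, Ccnb2 and Cdk1 each show CCAAT boxes at a step of 32 or 33 bases, while Ccne1 shows none of the motifs.

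The cyclins of S phase and mitosis stood lower in the Asxl1-/- cultures, and the D cyclins did not separate the genotypes. Ccna2, Ccnb1, Ccnb2, Ccne1 and Ccne2, and with a small gap Cdk1, had both Asxl1-/- libraries below both WT libraries. That makes 6 of 10, where 25.2% of the 11481 genes tested had both Asxl1-/- libraries lower, and 0 of 10 had both higher, where 15.6% of all genes did. Fold changes were negative for 9 of the 10, against 56.8% of all genes. The median log2 fold change of the 10 was -0.63 (Asxl1-/- minus WT, on the log2(FPKM + 1) scale), beside -0.07 for all genes tested. By limma with Benjamini-Hochberg adjustment over all genes, 0 of the 10 passed an adjusted p of 0.05, where 0.0261% of all genes did. Asxl1 itself did not pass either (log2 fold change -3.41 ± 0.29, limma adjusted p = 0.215). Missing that threshold therefore does not show that a level was unchanged. An unadjusted p under 0.05 was reached by 5 of the 10, all lower in Asxl1-/-, where 5.41% of all genes were lower and 2.51% higher at that p. The authors' deposited table also marked 0 of the 10 as significant, against 0.939% of the genes it tested. The A, B and E cyclins and Cdk1 are switched on in dividing cells, so the 10 genes are not independent events. In bulk RNA fewer dividing cells and less RNA per cell cannot be told apart.

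**Figure D2:**
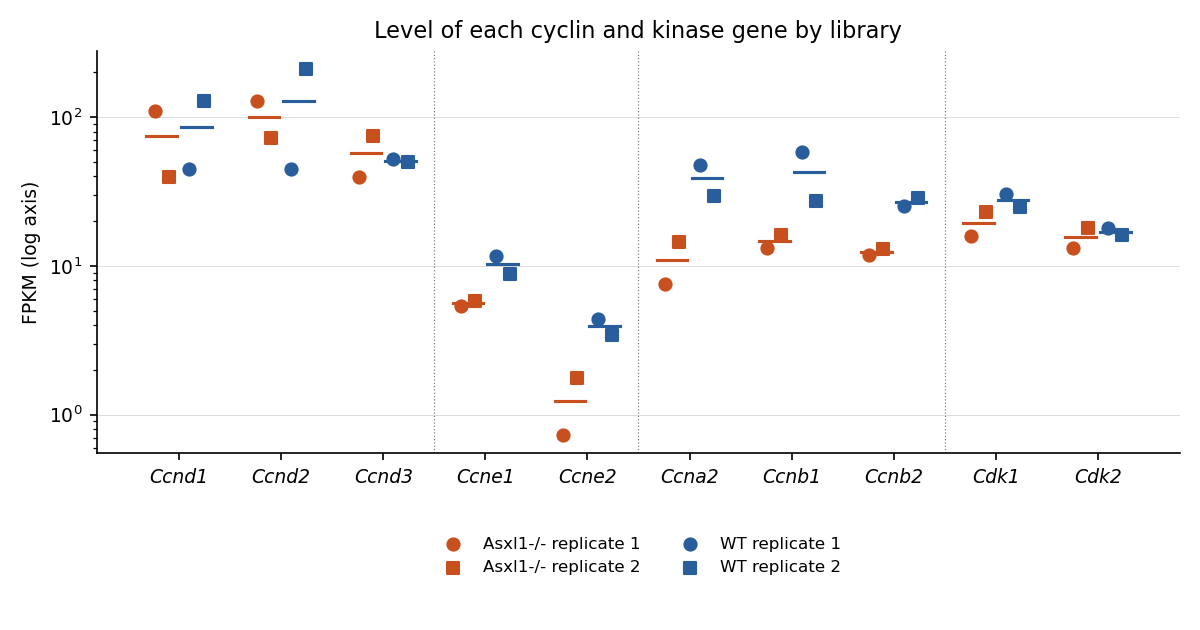
FPKM of each gene on a log axis in the 2 Asxl1-/- libraries (orange) and the 2 WT libraries (blue), with circles for replicate 1, squares for replicate 2 and short lines for group means. The groups are apart for Ccne1, Ccne2, Ccna2, Ccnb1, Ccnb2 and narrowly Cdk1, and are mixed for the D cyclins and Cdk2.

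Over the 4 libraries the D cyclins were the most abundant, with means of 114 FPKM for Ccnd2, 80.4 for Ccnd1 and 54.1 for Ccnd3. Ccnb1 (28.6), Ccna2 (24.9), Cdk1 (23.5), Ccnb2 (19.7) and Cdk2 (16.3) followed, and the ranges of neighbours in this order overlapped. Ccne1 (7.93) and Ccne2 (2.58) were the lowest, held the last 2 places in every library, and had ranges that met neither each other nor that of Cdk2. Below the D cyclins the order differed between libraries. In both Asxl1-/- libraries Cdk1, Cdk2 and Ccnb1 came next, in that order, whereas in WT replicate 2 Ccna2, Ccnb2 and Ccnb1 came before both kinases. In WT replicate 1 Ccnb1 was the highest of all 10 genes and Ccna2 stood above Ccnd1 and Ccnd2.

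D cyclins, the regulatory partners of Cdk4 and Cdk6, overlapped between the genotypes. Ccnd1 and Ccnd2 differed more between cultures of either genotype than between the genotype means, and Ccnd3 did so in Asxl1-/- but not in WT. Ccnd1 stood at 109.6 and 39.4 FPKM in Asxl1-/- replicates 1 and 2, against 44.8 and 128 FPKM in WT replicates 1 and 2. A high and a low library thus stood in each genotype, 2.78-fold apart in Asxl1-/- and 2.85-fold apart in WT, and limma gave a log2 fold change of -0.20 ± 0.72 (standard error; adjusted p = 0.955). Ccnd2 split the same libraries in the same way, with 129 and 72.1 FPKM in Asxl1-/-, against 44.8 and 211 FPKM in WT. Its log2 fold change was -0.02 ± 0.81 (limma adjusted p = 0.997), and with 1 library left out it ran from -1.12 to 1.09. Ccnd3 was at 39.6 and 75.2 FPKM in the Asxl1-/- libraries, against 52.1 and 49.7 FPKM in the WT libraries, so that the WT libraries lay between the Asxl1-/- libraries (log2 fold change 0.10 ± 0.37, limma adjusted p = 0.955). Asxl1-/- replicate 2, the lowest library for Ccnd1, was the highest for Ccnd3.

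The makeup of the D cyclin pool differed between libraries. The 3 genes together summed to 278 and 187 FPKM in Asxl1-/- and to 142 and 389 FPKM in WT. Ccnd3 made up 14.2% and 40.3% of that sum in Asxl1-/- replicates 1 and 2, against 36.7% and 12.8% in WT replicates 1 and 2. Ccnd2 was at or above Ccnd1 in all 4 libraries, with ratios of 1.18 and 1.83 in Asxl1-/- and of 1 and 1.65 in WT. Summed macrophage markers were highest in WT replicate 2 (560.4 FPKM), followed by Asxl1-/- replicate 2 (376 FPKM). WT replicate 2 was also the highest library for Ccnd1 and Ccnd2, while Asxl1-/- replicate 2 was the lowest for Ccnd1. Whether macrophage content bears on the D cyclin levels was not tested. Ccng1, a p53 target that encodes an atypical cyclin and was chosen after its values were seen, ranked the libraries as Ccnd2 did, with 258 and 106 FPKM in Asxl1-/- and 17.8 and 374 FPKM in WT.

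**Figure D3:**
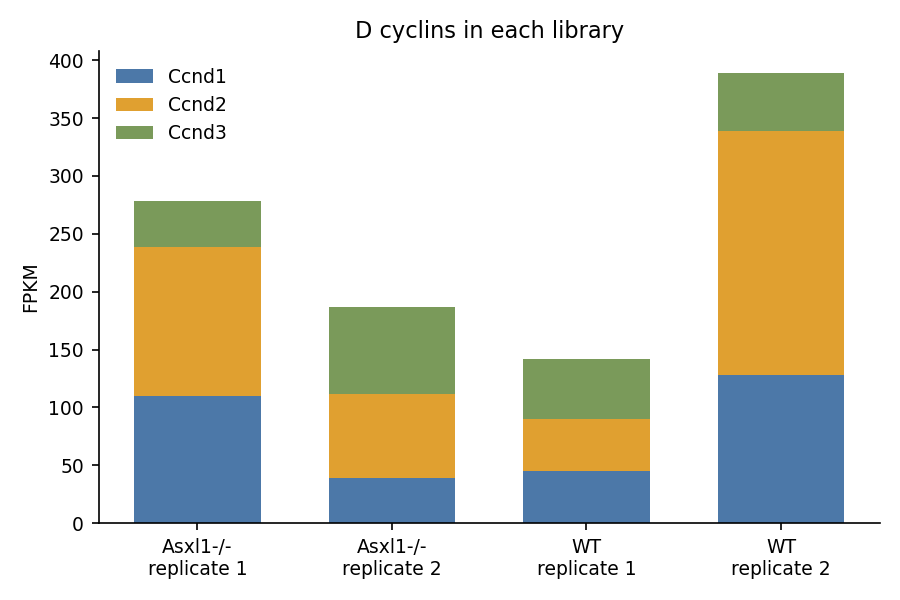
Stacked FPKM of Ccnd1, Ccnd2 and Ccnd3 in each of the 4 libraries. Asxl1-/- replicate 1 and WT replicate 2 have the tallest bars, at 278 and 389 FPKM, and in the other pair Ccnd3 holds a larger share.

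Cdk4, the more abundant kinase partner of the D cyclins, measured 190.2 and 249.6 FPKM in Asxl1-/-, against 267 and 193 FPKM in WT, a level above that of Cdk1 and Cdk2 in every library (log2 fold change -0.06 ± 0.31, limma adjusted p = 0.972). Its relative Cdk6 was much scarcer, at 1.51 and 1.59 FPKM in Asxl1-/- and at 4.81 and 3.14 FPKM in WT. Both Asxl1-/- libraries were below both WT libraries for Cdk6, with a log2 fold change of -0.94 ± 0.33 (limma adjusted p = 0.609).

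E cyclins, which activate Cdk2 at the start of DNA replication, were lower in both Asxl1-/- libraries. Ccne1 had 5.38 and 5.85 FPKM in Asxl1-/-, against 11.7 and 8.77 FPKM in WT, with no overlap and close Asxl1-/- replicates. Group means were 5.61 ± 0.328 and 10.3 ± 2.10 FPKM (Asxl1-/- and WT, SD, n = 2 each), and the log2 fold change was -0.76 ± 0.26 (limma adjusted p = 0.605). Ccne2 was the scarcest of the 10, at 0.730 and 1.75 FPKM in Asxl1-/-, against 4.42 and 3.42 FPKM in WT. Its groups did not overlap either, and the log2 fold change was -1.17 ± 0.38 (limma adjusted p = 0.596), with -1.69 at a pseudocount of 0.1 and -0.92 with chromosome medians removed. Ccne1 exceeded Ccne2 by 7.37-fold and 3.34-fold in Asxl1-/-, against 2.66-fold and 2.56-fold in WT.

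Cyclin A2, the partner of Cdk2 in S phase and of Cdk1 before mitosis, showed the largest fold change of the 10 on the scale used here. Ccna2 was at 7.52 and 14.5 FPKM in the Asxl1-/- libraries, against 48.0 and 29.7 FPKM in the WT libraries. The higher Asxl1-/- library reached 0.487 times the lower WT library. Means were 11.0 ± 4.92 FPKM in Asxl1-/- and 38.9 ± 12.9 FPKM in WT (SD, n = 2 each), and the log2 fold change was -1.76 ± 0.42 (limma adjusted p = 0.52). Ccna2 lies on chromosome 3, where genes as a whole had median log2 deviations of -0.44 and -0.05 in Asxl1-/- replicates 1 and 2 and of 0.42 and 0.08 in WT replicates 1 and 2. With each library's chromosome medians removed the log2 fold change was -1.26 ± 0.26, and Ccnb1, at -1.28, then had the largest of the 10.

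B cyclins, which with Cdk1 form the kinase that starts mitosis, were also lower in both Asxl1-/- libraries. Ccnb1 measured 13.1 and 16.2 FPKM in Asxl1-/-, against 58.0 and 27.2 FPKM in WT, with WT replicate 1 above the other 3 libraries. Its log2 fold change was -1.39 ± 0.42 (limma adjusted p = 0.566), and without WT replicate 1 it was -0.86. Ccnb2 had the closest replicates of the cyclins that did not overlap, with 11.9 and 13.0 FPKM in Asxl1-/-, against 25.4 and 28.5 FPKM in WT. Means were 12.4 ± 0.760 and 26.9 ± 2.18 FPKM (Asxl1-/- and WT, SD, n = 2 each). For Ccnb2 the log2 fold change was -1.06 ± 0.22, with a range of only -1.14 to -0.98 when 1 library was left out, and it had the smallest limma p of the 10 (adjusted p = 0.502).

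The kinases had smaller fold changes than the A, B and E cyclins they bind. Cdk1, the mitotic kinase, had 15.8 and 23.1 FPKM in Asxl1-/-, against 30.4 and 24.9 FPKM in WT, so that the nearest libraries of the genotypes were almost level. Its log2 fold change was -0.50 ± 0.29 (limma adjusted p = 0.697) and was -0.24 without Asxl1-/- replicate 1. Cdk2 was at 13.1 and 18.0 FPKM in the Asxl1-/- libraries, against 17.9 and 16.1 FPKM in the WT libraries, and the groups overlapped (log2 fold change -0.13 ± 0.26, limma adjusted p = 0.908). Both genes lie on chromosome 10, whose genes had median log2 deviations of 0.04 and 0.24 in Asxl1-/- and of -0.29 and -0.03 in WT. With those medians removed the log2 fold changes were -0.81 ± 0.27 for Cdk1 and -0.44 ± 0.23 for Cdk2, larger than before, and neither passed the adjusted threshold (limma adjusted p = 0.539 and 0.62).

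**Figure D4:**
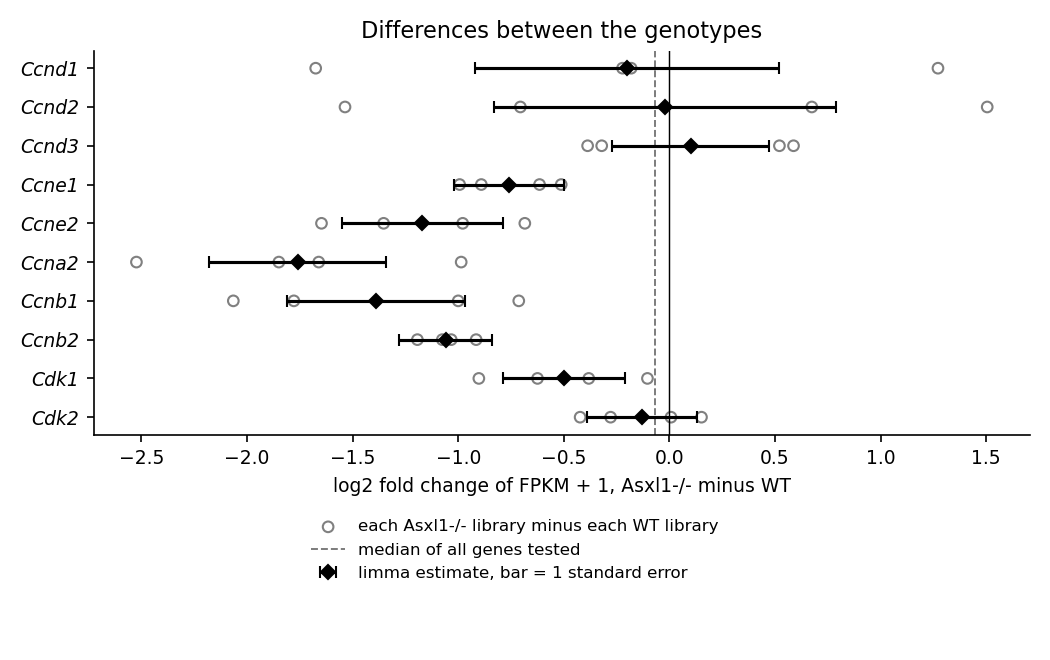
Log2 fold change of FPKM + 1, Asxl1-/- minus WT, with 1 standard error from limma (black) and the 4 differences between single libraries (grey circles), and the median of all genes tested as a dashed line. The 4 differences lie below 0 for Ccne1, Ccne2, Ccna2, Ccnb1, Ccnb2 and Cdk1, and span 0 for Ccnd1, Ccnd2, Ccnd3 and Cdk2.

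Ratios within a library, which do not depend on the scaling between libraries, put each cyclin beside its kinase. The Ccnb1 to Cdk1 ratio was 0.826 and 0.703 in Asxl1-/-, against 1.91 and 1.09 in WT. For Ccna2 over Cdk1 the values were 0.475 and 0.627 in Asxl1-/-, against 1.58 and 1.20 in WT, and for Ccnb2 over Cdk1 they were 0.750 and 0.561, against 0.835 and 1.14. Relative to Cdk2, Ccne1 stood at 0.410 and 0.325 in Asxl1-/- and at 0.655 and 0.546 in WT, and Ccne2 at 0.0556 and 0.0973 in Asxl1-/- and at 0.247 and 0.213 in WT. Cdk1 over Cdk2 was 1.21 and 1.29 in Asxl1-/-, against 1.70 and 1.55 in WT. The genotypes overlapped in none of these 6 ratios, all lower in Asxl1-/-, and no share over all gene pairs was computed beside that count. Cdk1 and Cdk2 lie on chromosome 10, whose median log2 deviations were higher in Asxl1-/- by 0.31. The ratios of cyclins to these kinases were not adjusted for that difference. All the ratios share genes. With 2 against 2 libraries an exact two-sided permutation test cannot go below p = 0.33, so the ratios are given as values. The sum of the D cyclins over that of Ccna2, Ccnb1 and Ccnb2 did overlap, at 8.56 and 4.27 in Asxl1-/-, against 1.08 and 4.55 in WT.

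**Figure D5:**
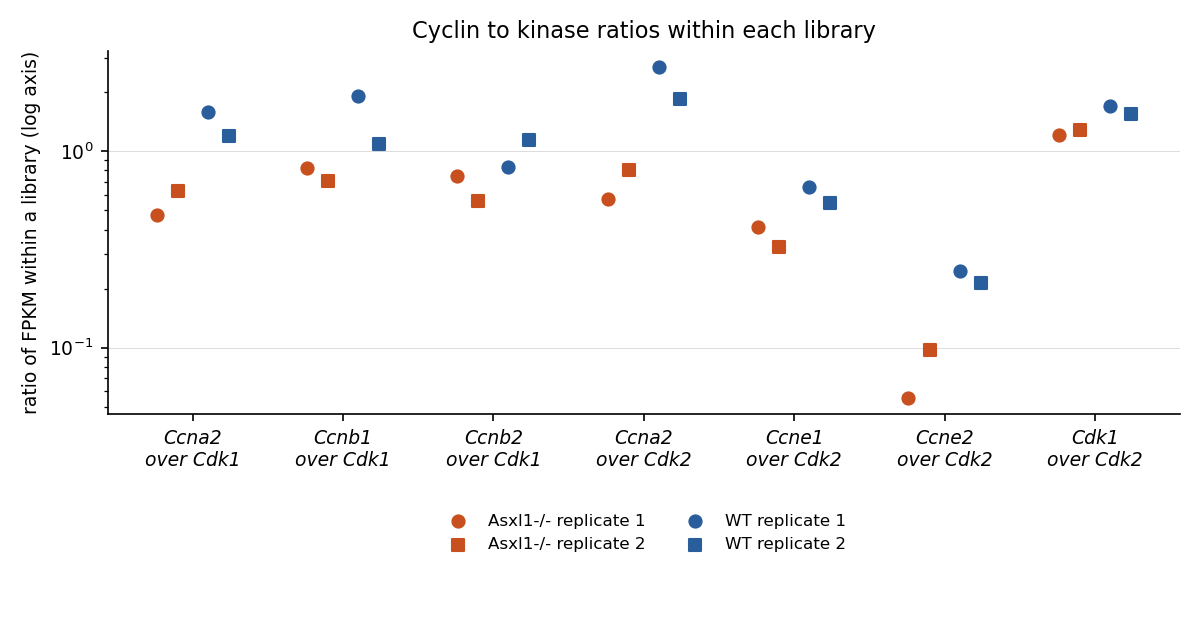
Ratio of FPKM within each library, on a log axis, for cyclins over the kinase they bind and for Cdk1 over Cdk2, in the 2 Asxl1-/- libraries (orange) and the 2 WT libraries (blue). In each of the 7 ratios both Asxl1-/- libraries lie below both WT libraries.

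In the authors' deposited table, computed by Cuffdiff with its own scaling, the A and B cyclins had the smallest q-values of the 10. That deposited table gives Ccnb1 group levels of 18.4 FPKM for Asxl1-/- and 48.8 FPKM for WT, with a log2 fold change of -1.41 (q = 0.179). The authors' deposited table lists Ccna2 at 13.8 and 44.7 FPKM (Asxl1-/- and WT) with a log2 fold change of -1.70 and q = 0.286. For Ccnb2 the authors' deposited table has 15.6 and 31.3 FPKM with q = 0.737, and for the other 7 genes a q of 0.999. These group levels come from the same libraries, so they are no independent measurement.

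Other genes that set cyclin and kinase activity were read from lists by role, 97 genes of which 86 were tested. In 35 of the 86 both Asxl1-/- libraries were the lower pair, where 25.2% of all genes were, and in 7 the higher pair, where 15.6% were. The same shares of all genes apply to each list below. The median log2 fold change was -0.22, beside -0.07 for all genes. Without WT replicate 1, without WT replicate 2 and after median ratio scaling the median of all genes was -0.04, -0.11 and 0.01. Those of the 86 were -0.12, -0.47 and -0.14. By limma 0 passed the adjusted threshold and 14 had an unadjusted p under 0.05, all lower in Asxl1-/-, where 5.41% of all genes were lower at that p. The smallest adjusted p among the 86 was 0.502, so the genes named next are given as values.

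Among the activators, all 6 tested subunits and phosphatases had negative fold changes, with a median of -0.90 (-0.55 without WT replicate 1), and 5 had both Asxl1-/- libraries below WT, where 25.2% of all genes did. Cdc25b, a phosphatase that removes the inhibitory phosphates of Cdk1, measured 5.94 and 5.91 FPKM in Asxl1-/-, against 16.3 and 9.32 FPKM in WT. Cdc25c, which acts at mitotic entry, stood at 2.94 and 2.2 FPKM in Asxl1-/- and at 6.28 and 4.60 FPKM in WT. Cks1b, a small subunit of Cdk complexes, had 25.0 and 41.5 FPKM in Asxl1-/-, against 119 and 52.1 FPKM in WT. Pkmyt1, a kinase that holds Cdk1 inactive, was lower as well, at 1.95 and 2.32 FPKM in Asxl1-/-, against 9.70 and 5.37 FPKM in WT, while the groups overlapped for the inhibitory kinase Wee1, at 2.37 and 4.97 FPKM in Asxl1-/- and at 5.87 and 4.14 FPKM in WT.

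Regulators of cyclin transcription and destruction gave a mixed picture. Of 16 tested E2F, Myb and forkhead factors with their partners, 10 had both Asxl1-/- libraries below WT and 2 above, with a median log2 fold change of -0.57, which was -0.35 without WT replicate 1 and -0.36 with chromosome medians removed. Foxm1, an activator of mitotic genes, was at 4.64 and 6.31 FPKM in the Asxl1-/- libraries, against 18.8 and 11.6 FPKM in the WT libraries. E2f8, a repressor of E2F targets made in S phase, stood at 1.09 and 1.24 FPKM in Asxl1-/- and at 3.08 and 4.5 FPKM in WT, and the E2F partner Tfdp1 at 39.0 and 43.0 FPKM, against 65.8 and 61.6 FPKM. Of 19 genes of ubiquitin ligases and their regulators 10 were below and 2 above, with a median of -0.21. After median ratio scaling, where the median of all genes was 0.01, that of these 19 was -0.12. Their median was -0.09 without WT replicate 1, -0.57 without WT replicate 2 and -0.32 without Asxl1-/- replicate 2. Those with the smallest limma p were Cdc20, the mitotic activator of the anaphase-promoting complex, Ube2c, the ubiquitin-conjugating enzyme of that complex, and Skp2, which targets the inhibitor p27. Cdc20 measured 10.2 and 9.27 FPKM in Asxl1-/-, against 47.0 and 24.2 FPKM in WT. Ube2c stood at 27.5 and 25.5 FPKM in Asxl1-/- and at 118 and 50.5 FPKM in WT, and Skp2 at 3.16 and 2.24 FPKM, against 10.8 and 5.48 FPKM.

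Inhibitors of the kinases had no common direction. Of 6 tested Cdk inhibitors 4 had negative and 2 positive fold changes, from -1.29 to 1.33 with a median of -0.53. In 1 both Asxl1-/- libraries were below WT and in 0 both were above. Cdkn2b (p15), an inhibitor of Cdk4 and Cdk6, had 14.9 and 25.9 FPKM in Asxl1-/-, against 73.1 and 33.5 FPKM in WT (log2 fold change -1.29 ± 0.49, limma adjusted p = 0.629). Cdkn1b (p27) overlapped, at 25.2 and 21.5 FPKM in Asxl1-/- and at 54.4 and 20.3 FPKM in WT. So did Cdkn2c (p18), at 6.6 and 15.5 FPKM in Asxl1-/- and at 42.4 and 7.66 FPKM in WT, and WT replicate 1 was the highest library for both. Rbl1, the retinoblastoma relative whose level follows E2F activity, was at 3.99 and 3.20 FPKM in the Asxl1-/- libraries, against 7.35 and 6.43 FPKM in the WT libraries, whereas the groups overlapped for Rbl2, at 9.56 and 10.9 FPKM in Asxl1-/- and at 10.7 and 11.4 FPKM in WT. Rb1 itself overlapped too, at 5.4 and 6.12 FPKM in Asxl1-/- and at 3.33 and 11.2 FPKM in WT.

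Cyclins and kinases outside the cell cycle engine showed little common direction. Of 16 tested genes listed with the other cyclins, Cables2 among them, 9 had negative and 7 positive fold changes (median -0.12). Of 15 transcriptional and other kinases 8 had negative and 7 positive fold changes (median -0.12). Ccnf, a cyclin that acts as a ubiquitin ligase subunit in G2, was at 3.69 and 2.97 FPKM in Asxl1-/-, against 9.03 and 10.6 FPKM in WT (log2 fold change -1.32 ± 0.25, limma adjusted p = 0.502). Ccnyl1, a relative of cyclin Y, went the other way, with 34.3 and 23.4 FPKM in Asxl1-/- and 14.1 and 18.2 FPKM in WT. Cdk14, a partner of cyclin Y in Wnt signalling, measured 16.0 and 17.1 FPKM in Asxl1-/-, against 38.6 and 29.5 FPKM in WT. Cdk10 had 10.4 and 14.5 FPKM in Asxl1-/- and 21.4 and 16.3 FPKM in WT, Cdk17 had 10.5 and 11.5 FPKM in Asxl1-/- and 8.36 and 10.0 FPKM in WT, and Cables2 had 3.74 and 2.78 FPKM in Asxl1-/- and 6.32 and 5.62 FPKM in WT. Cdk7, which activates cell cycle kinases and was listed with the G1 and S phase kinases, overlapped between the genotypes. It stood at 7.35 and 9.34 FPKM in Asxl1-/- and at 10.2 and 6.16 FPKM in WT.

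Markers of dividing cells lay beside the A and B cyclins. All 18 listed genes had negative fold changes, 17 with both Asxl1-/- libraries below WT, where 25.2% of all genes had that order, and the median was -1.10. Tk1, a thymidine kinase made in S phase, had 13.1 and 11.3 FPKM in Asxl1-/-, against 27.3 and 26.7 FPKM in WT. Birc5, a mitotic survival factor, had 16.0 and 15.3 FPKM in Asxl1-/- and 35.0 and 34.6 FPKM in WT, and the replication helicase gene Mcm5 had 8.42 and 6.46 FPKM in Asxl1-/- and 31.1 and 18.1 FPKM in WT. These markers were chosen with earlier results of these data known, so their count is no independent support. By library the median log2 deviation of the list was -0.52 and -0.66 in Asxl1-/- replicates 1 and 2 and 0.83 and 0.31 in WT replicates 1 and 2. For the cyclins Ccna2, Ccnb1, Ccnb2, Ccne1 and Ccne2 it was -0.84 and -0.45 in Asxl1-/- and 0.73 and 0.44 in WT, so WT replicate 1 was the highest library in both sets.

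Profiles of the 10 genes over the 4 libraries were compared by distance, and no grouping was computed. By the root mean square distance between log2(FPKM + 1) values, each centred on its mean, Ccna2 and Ccnb1 were nearest to each other among the 10 (0.306), as were Ccnd1 and Ccnd2 (0.349) and Cdk1 and Cdk2 (0.192). The other nearest members crossed the cyclin classes. Ccnb2 was nearest to Ccne1 (0.244), Ccne2 to Ccnb2 (0.258), Ccne1 to Cdk1 (0.198) and Ccnd3 to Cdk2 (0.209). Ccnd2 was the farthest from every gene but Ccnd1 and itself. Among all genes tested, those nearest to Cdk1 were Usp46 (0.0232), Zfp687 (0.0260) and Ash1l (0.0264). Those nearest to Ccnd1 were Pmm1 (0.0464), Scarb1 (0.114) and Tap1 (0.125), each highest in WT replicate 2 and Asxl1-/- replicate 1. With 4 libraries many genes share a profile, and these distances are a description only.

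Some of these rows share exon bases with a gene on the other strand, by GENCODE M21 on GRCm38, and the strandedness of the libraries is not given in the sources used here. Ccne2 shared 17.4% of its exon bases with Ints8 and Ccna2 12.5% with Exosc9, and reads from there could be counted for either gene. Exosc9 was at 16.4 and 19.1 FPKM in the Asxl1-/- libraries, against 24.6 and 24 FPKM in the WT libraries. Ints8, at 10.7 and 15 FPKM in Asxl1-/- and at 20.4 and 12.8 FPKM in WT, was above Ccne2 in every library. For Ccnd2, Ccnd3 and Cdk2 the part shared with measured genes was 3.91%, 4.11% and 0.547%. Ccnd1 also shares exon bases with LTO1, and Ccnd2 with Gm43126. Neither of these partners had FPKM values here, and their shares were not computed. Ccnb1, Ccnb2 and Ccnd3 have pseudogenes under their own names in that annotation, so reads of near-identical copies could be split there.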

How the data were processed

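RNA of 4 cultures was sequenced, 2 Asxl1-/- and 2 WT, grouped by the genotype label. Per the submitters' processing notes, TopHat2 (2.0.3), Cufflinks (2.2.1) and Cuffdiff were run on mm10; the sources used here do not name the gene annotation or the library kit. The authors deposited FPKM per library and, from Cuffdiff, group FPKM, log2 fold changes, p-values and q-values. A further 4 per-sample columns of the deposited tables belong to no sample of this series and were left aside. File starts were raised by 1.

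From 24487 rows, 1 per symbol was kept (the highest mean). The 11481 genes whose mean reached 1 FPKM were fitted with limma (3.58.1, R 4.3.3; eBayes, trended variance) on log2(FPKM + 1), a scale that shrinks the change of low genes. Benjamini-Hochberg adjustment ran over all of them, at 0.05. The fit was tested on simulated data. Tables and figures were made in Python (3.11.15). The alternatives were pseudocounts of 0.1 and 0.5, other filters, median ratio and quantile scaling, other variance settings, removal of short rows or chromosome medians, and leaving out each library. The members, lists and alternatives were chosen with earlier results of these data known. All members are named, and from each list the up to 3 tested genes with the smallest limma p, besides Cdk4, Cdk6, Asxl1 and the 3 nearest profiles of Cdk1 and Ccnd1.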

Additional observations from a re-analysis of the deposited data

How the results depend on the processing

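No paired analysis was possible because the replicate numbers were given in accession order and pair no samples. Under the 10 alternatives that kept all 4 libraries, 0 of the 10 genes passed the adjusted threshold of limma. Asxl1 did not pass it there either (smallest limma adjusted p = 0.164). Under all 14 alternatives Ccna2, Ccnb1, Ccnb2, Ccne1 and Cdk1 kept negative fold changes, and so did Ccne2 wherever it was tested. The number with both Asxl1-/- libraries below both WT libraries, 6, was 7 with chromosome medians removed. Leaving out 1 library can only keep or raise that number (6 to 8), so this range says nothing about how stable it is. The members' median log2 fold change of -0.63 was -0.54 after median ratio scaling, -0.55 after quantile normalization and -0.78 with chromosome medians removed. The median of all genes, -0.07, was 0.01, 0.02 and 0.01 under the same settings. At a mean of at least 5 FPKM, which drops Ccne2, the members' median was -0.50. With 1 library left out it ran from -0.90 to -0.77. Ccnd2 turned positive after median ratio scaling (0.07) and with chromosome medians removed (0.19). Leaving out 1 library at a time gave log2 fold changes of -0.95 to 0.54 for Ccnd1, -1.12 to 1.09 for Ccnd2, -0.35 to 0.55 for Ccnd3 and -0.35 to 0.08 for Cdk2, so none of the 4 has a direction here. Of all genes 3 passed limma's adjusted threshold, 1 without the filter, 0 without rows under 300 bp and 1 to 8 with 1 library left out. The 3 were Snora15, Snora69 and Snora47, whose spans of 116, 122 and 126 bp put them among the rows under 300 bp. The cause of the other shifts was not tested. Applied after seeing the data, the same alternatives left the medians of the activator, E2F, ligase and proliferation lists negative, but with 1 library left out they ran from -1.18 to -0.55, from -0.72 to -0.35, from -0.57 to -0.09 and from -1.34 to -0.92. The unknown read number limits what can be said of Ccne2, which stood near 1 FPKM in Asxl1-/-.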
